A study of Mus musculus with 56 samples.

Results

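Of 24 myeloid progenitor clones grown in stem cell factor (SCF), 3 had more ATAC-seq signal on chromosome 1 than the rest, in both of their lines. These were clones 5, 13 and 16. They were chosen by this signal: a clone was taken when the share of its counts on chromosome 1 was over 1.08 times the median of all 56 libraries in both lines. The rule found 6 of the 48 SCF libraries. The other 21 SCF clones, with 42 libraries, were the reference. Because the rule used the chromosome 1 counts, every chromosome 1 level below is a description, given with no test. The 3 clones are called the gained clones here for their larger chromosome 1 signal, and no DNA copy number was measured.

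All clones came from Tet2 fl/fl mouse bone marrow cells, conditionally immortalised with a retrovirus carrying Hoxb8 fused to the estrogen receptor, and were kept in beta-estradiol. The series has 28 clones, and those grown in GM-CSF are not described here. Each clone grew from a single granulocyte-monocyte progenitor and was split into a Tet2 KO line, given an integrase-defective lentivirus encoding Cre recombinase, and a control line, given GFP. Gained and other clones therefore share the floxed allele, the Hoxb8 transgene and the SCF culture, and differ by neither treatment nor genotype. The authors' results describe the clones as derived from a single Tet2 fl/fl mouse, while their reporting summary gives lines from mice of both sexes. The labels do not name a mouse for any clone. If there was more than 1 mouse, differences between mice and between clones cannot be told apart. Each clone is one immortalised cell's progeny, so the clone was the replicate. The SCF clones were numbered 1 to 18 (without 6) and 23 to 29, and the gained clones all fell in the first block, with 14 of the other clones, against 7 in the second. Total counts were 178694 to 495309 in the gained lines, against 102302 to 1079233 in the other SCF lines. The promoter share of counts was 47.8 ± 4.87% in the gained clones, against 47.3 ± 3.53% in the other clones (SD, n = 3 and 21, two-sided exact permutation test over clones, p = 0.841). Loci of Kit, the receptor for SCF, and Mpo, myeloperoxidase of granule-bearing myeloid cells, were accessible in both groups. Kit had 93.7 ± 17.4 CPM in gained KO lines, against 70.3 ± 21.4 CPM in other KO lines (SD, n = 3 and 21), and Mpo had 87.5 ± 11.4 against 71.0 ± 24.2 CPM. CPM here is counts per 1000000 counts on chromosomes 2 to 19, which keeps chromosome 1 out of its own scale. The Tet2 locus, counted around its start and not over the floxed part, does not check the deletion. It had 37.6 ± 9.01 CPM in gained KO lines, 48.4 ± 0.119 CPM in gained control lines, 35.4 ± 10.4 CPM in other KO lines and 31.6 ± 11.9 CPM in other control lines.

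ATAC-seq uses the transposase Tn5 to cut open chromatin, and the fragments come from genomic DNA. A cell with an extra copy of a chromosome offers more template, so reads over its open regions can increase along the copied stretch. Gains of whole chromosomes are a known event in cultured and immortalised cells and in blood cancers. In such cells the genes of the added chromosome are, as a rule, present in excess together, and mitotic, protein quality control and DNA sensing pathways have been linked to how cells tolerate it.

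The most accessible promoter peak in each of 3 equal segments of chromosome 1 shows the kind of region the signal comes from. The central 150 bases of each are printed in the mm10 forward strand from the RefSeq GRCm38.p6 genome, with CpG dinucleotides in capitals, since CpG-dense sequence marks many constitutively open promoters.
Hspe1: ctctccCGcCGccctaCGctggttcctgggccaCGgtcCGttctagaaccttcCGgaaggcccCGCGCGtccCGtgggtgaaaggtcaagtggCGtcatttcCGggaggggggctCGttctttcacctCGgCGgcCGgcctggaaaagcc
Hjurp: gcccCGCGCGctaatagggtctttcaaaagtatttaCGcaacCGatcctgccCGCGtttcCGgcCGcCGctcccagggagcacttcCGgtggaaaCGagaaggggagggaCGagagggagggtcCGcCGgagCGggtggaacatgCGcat
Srgap2: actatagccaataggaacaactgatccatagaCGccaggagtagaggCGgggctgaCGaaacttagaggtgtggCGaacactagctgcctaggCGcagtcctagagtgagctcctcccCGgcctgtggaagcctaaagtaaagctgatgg
The first lies in the proximal segment, in the peak chr1:55087944-55088244, 38 bases from the start of Hspe1, which encodes the HSP10 co-chaperonin of mitochondria. The second lies in the middle segment, in chr1:88277458-88277758, 25 bases from the start of Hjurp, the chaperone that loads the centromeric histone CENP-A. The last lies in the distal segment, in chr1:131527349-131527649, 147 bases from the start of Srgap2, a GTPase-activating protein of the cell cortex. They held 16, 17 and 6 CpGs. The median was 4 in windows of this length over the 2155 promoter peaks of chromosome 1, and 91.7% of those windows held at least 1.

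At these single peaks the difference did not separate the lines. The Hspe1 peak had 139.6, 189.8 and 226 CPM in the KO lines of clones 5, 13 and 16, against 66.2 to 190.1 CPM (median 150.5) in the other KO lines. The Hjurp peak had 197, 275 and 349 CPM in the same KO lines, against 167 to 304 CPM (median 234) in the other KO lines. The Srgap2 peak had 119, 171 and 234 CPM in the same KO lines, against 125 to 290 CPM (median 175) in the other KO lines. Clone 5 thus lay below all other KO lines at this peak. In control lines the Srgap2 peak had 194, 197 and 130.0 CPM in clones 5, 13 and 16, against 84.2 to 275 CPM (median 122) in the other clones. At each of these peaks the gained and other lines overlapped. The signal was read from sums over many peaks instead.

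Summed over its 20473 peaks, chromosome 1 carried more counts in each of the 6 gained lines. Chromosome 1 counts over counts on chromosomes 2 to 19 were divided by the median of the same ratio in same-genotype lines of the other clones. This ratio was 1.19, 1.16 and 1.11 in the KO lines of clones 5, 13 and 16, against 0.952 to 1.06 (median 1.00) in the 21 other KO lines. It was 1.24, 1.17 and 1.14 in their control lines, against 0.970 to 1.04 (median 0.999) in the 21 other control lines. Over all peaks the 3 clones stood in the same order in both genotypes, clone 5 highest and clone 16 lowest. This order did not hold in every class of peak. Over distal peaks alone the KO line of clone 13 had 1.162 and that of clone 5 had 1.159. In the third quartile of peaks by accessibility the KO lines of clones 5, 13 and 16 had 1.10, 1.19 and 1.08. Counting error was small beside the distance of these lines from 1. The 95% Wilson interval was 1.18 to 1.20 for the KO line of clone 5. It was 1.13 to 1.18 for that of clone 13, which nearly met the interval of clone 5, and 1.10 to 1.13 for that of clone 16. These intervals cover counting error only. For scale, 3 copies in place of 2 in every cell would give 1.5 if counts followed copies, and none of the 6 lines reached it. More template and more open chromatin per template cannot be told apart from these counts.

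On the scale of the rule, the share of all counts relative to the median library, the clone just inside was clone 16 with 1.10 in its KO line and 1.12 in its control line. By its lower line, the SCF clone just outside was clone 9, with 1.02 in both its KO line and its control line. The highest single line outside was the KO line of clone 27 with 1.06, and its control line had 0.976.

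**Figure D1:**
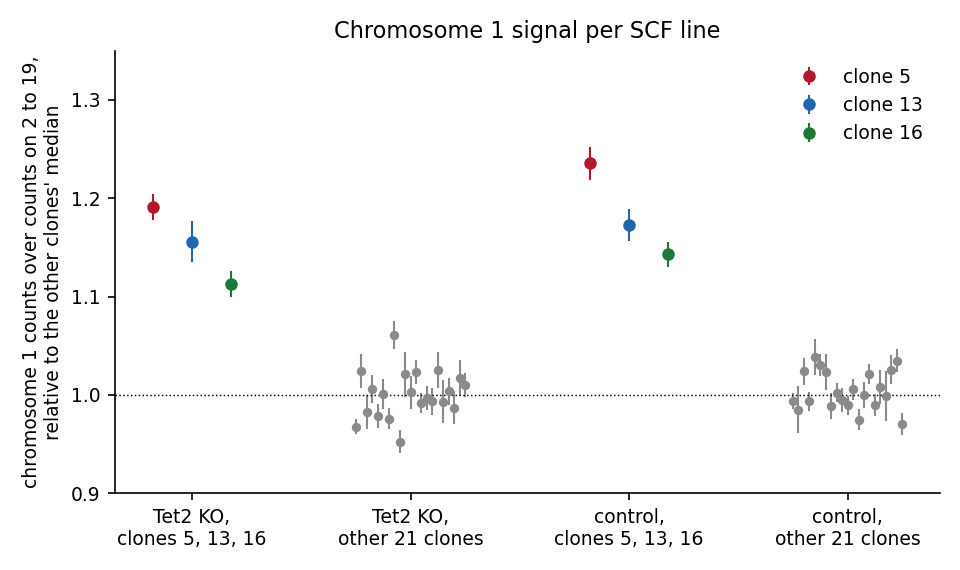
Chromosome 1 counts over counts on chromosomes 2 to 19, relative to the median of the other clones' lines of the same genotype (y axis), for each SCF line; bars are 95% Wilson intervals of counting error. The 3 gained clones sit at 1.11 to 1.24, above all 42 other lines, which lie between 0.952 and 1.06.

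Over all peaks the ratio was lower in the KO line than in the control line in all 3 gained clones. KO minus control was -0.0442 in clone 5, -0.0172 in clone 13 and -0.0301 in clone 16, against -0.0361 to 0.0762 (median -0.00572) in the other clones. The values of clones 13 and 16 lay within the range of the other clones and that of clone 5 lay just below it. The difference depended on the class of peak. Over promoter peaks alone the KO and control lines had 1.208 and 1.209 in clone 5 and 1.161 in both lines of clone 13. In clone 16 they had 1.133 and 1.126, with the KO line higher. Over the less accessible peaks the mean was 1.12 ± 0.027 in gained KO lines and 1.22 ± 0.047 in gained control lines (SD, n = 3 each). In the other clones it was 0.997 ± 0.044 and 1.00 ± 0.026 (SD, n = 21 each). Single other clones differed in either direction. Clone 17 had 0.952 in its KO line and 1.05 in its control line, and clone 27 had 1.07 and 0.945.

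The larger signal was seen from end to end of the chromosome, and all 6 gained lines were above 1 in 29 of the bins counted. In 5 Mb bins with at least 10000 counts over the SCF lines (32 of 40 bins), the median ratio was 1.21, 1.16 and 1.11 in the KO lines of clones 5, 13 and 16, against 0.958 to 1.08 in other SCF lines of either genotype. It was 1.24, 1.17 and 1.14 in their control lines. All 32 bins were above 1 in both lines of clone 5 and in the control line of clone 13. In the KO line of clone 13 it was 30 bins, and in each line of clone 16 it was 31 bins. Other SCF lines had 4 to 32 bins above 1, with a median of 16, and the line with 32 was the KO line of clone 27. Both lines exceeded 1.15 in 23 bins of clone 5, 13 of clone 13 and 5 of clone 16, against 0 to 2 bins in each of the other clones.

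Ratios above the other clones were seen in each of the 3 segments. In the proximal, middle and distal segments the KO line of clone 5 had ratios of 1.22, 1.17 and 1.19, and its control line had 1.24, 1.23 and 1.23. The KO line of clone 13 had 1.16, 1.14 and 1.16 in the same order, and that of clone 16 had 1.13, 1.12 and 1.10. Across the 6 gained lines the segments spanned 1.13 to 1.24, 1.12 to 1.23 and 1.10 to 1.23, against 0.948 to 1.06, 0.932 to 1.04 and 0.946 to 1.07 in the other lines. In each segment all 6 gained lines were above all 42 other lines. A single stretch with its own level was then fitted to each line by Poisson likelihood in 1 Mb bins. The fit improved by 4.58 to 14.1 log units in the gained lines, against 4.20 to 32.4 (median 8.32) in the other lines, where the same search was run. A stretch of different level was thus no better resolved in the gained lines than in the reference. The bin-to-bin SD of the log2 ratio was 0.0668 to 0.113 in the gained lines, against 0.0528 to 0.182 in the other lines.

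**Figure D2:**
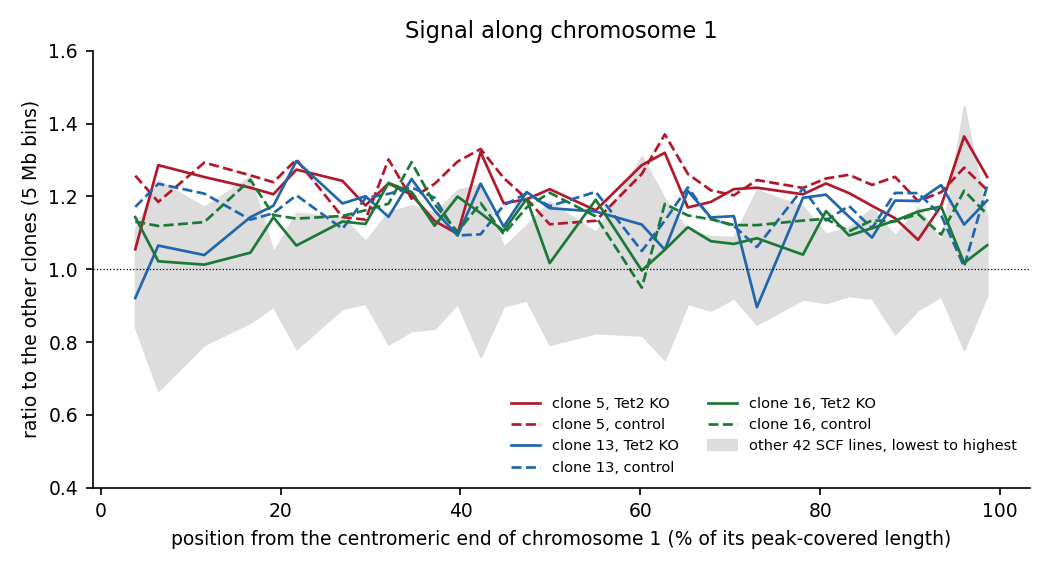
Ratio to the other clones (y axis) in 5 Mb bins along chromosome 1 (x axis, % of the peak-covered length from the centromeric end) for both lines of clones 5, 13 and 16; the grey band spans the lowest to the highest of the other 42 SCF lines. The gained lines have medians of 1.11 to 1.24, their single bins lie between 0.896 and 1.37, and all 6 are above 1 in 29 of the 32 bins.

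Promoters and distal elements both carried the larger signal. Over promoter peaks, centred within 1 kb of a transcription start, the ratio was 1.13 to 1.21 in gained KO lines, against 0.975 to 1.06 in other KO lines. Over distal peaks it was 1.11 to 1.16 in gained KO lines, against 0.934 to 1.06 in other KO lines. In control lines it was 1.13 to 1.21 over promoters and 1.15 to 1.25 over distal peaks in the gained clones, against 0.973 to 1.02 and 0.951 to 1.05 in the other clones. The groups did not overlap in either class. Peaks were also split by their counts in the other clones into quartiles. The median over the 6 gained lines was 1.15, 1.15, 1.18 and 1.17, least to most accessible. In the least accessible quartile the gained lines (1.04 to 1.22) overlapped the other lines (0.884 to 1.12). The same held in the third quartile (1.08 to 1.22, against 0.898 to 1.11). In the second they were just apart (1.108 to 1.239, against 0.905 to 1.101), and in the most accessible they did not overlap (1.13 to 1.21, against 0.977 to 1.06).

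At the level of genes, loci on chromosome 1 were higher in the gained clones as a body. A locus was the sum of peaks centred within 10 kb of the start of a protein-coding gene, so close neighbours share peaks. Of 832 chromosome 1 loci with enough counts, 722 (86.8%) had a log2 difference above 0, gained minus other clones, with a median of 0.21, a ratio of 1.15. The interquartile range was 0.09 to 0.31. Over the 13267 loci on chromosomes 2 to 19 in the same fit, the median was -0.00 and 49.1% were above 0. The median SE of one locus was 0.17 on both, so the shift of the body of loci is about the size of the error of a single gene. Line by line, the median of chromosome 1 loci exceeded the median of loci on 2 to 19 by 0.24, 0.25 and 0.20 on the log2 scale in the KO lines of clones 5, 13 and 16. In their control lines it did so by 0.31, 0.23 and 0.17. Other SCF lines had -0.08 to 0.12.

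**Figure D3:**
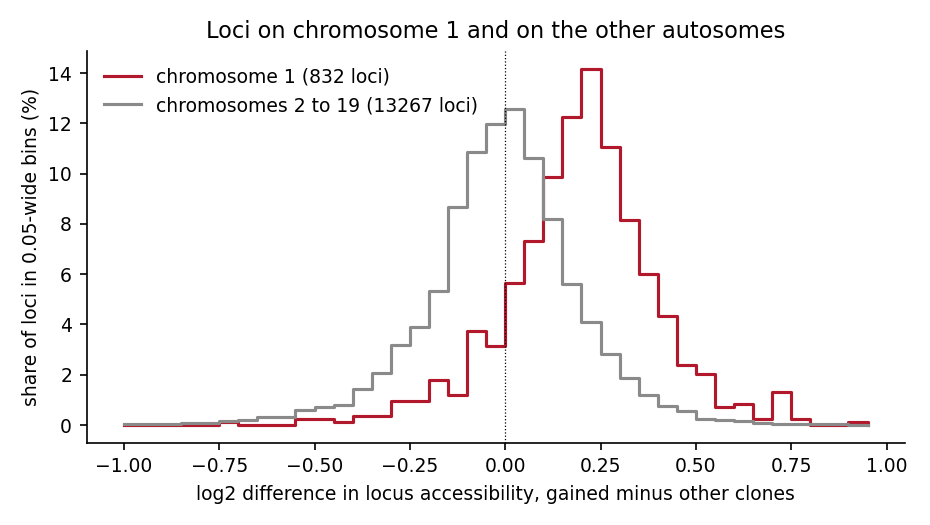
Share of loci (y axis, %) by log2 difference in locus accessibility, gained minus other SCF clones (x axis, bins of 0.05), for 832 loci on chromosome 1 and 13267 on chromosomes 2 to 19, of which 17 lie outside the axis. The chromosome 1 distribution is centred at 0.21 and the other at 0.

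Genes of chromosome 1 with known parts in myeloid cells, listed by role, lay around this median. Of 71 such genes in 6 lists, 62 had enough counts, and 56 were above 0 with a median of 0.21, beside 86.8% and 0.21 for all chromosome 1 loci. The list medians ran between 0.15 and 0.26. Over the alternative fits 3 list medians stayed between 0.15 and 0.27: survival and cell cycle, chromatin and genome maintenance, and transcription factors and signalling. The other lists moved more. In KO lines alone the chemokine, cytokine and Fc receptor median was 0.09, with 4 of 7 above 0. In control lines alone the phagocyte effector median was -0.14, with 1 of 3 above 0.

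Genes of survival and the cell cycle (10 of 10 measured, 7 above 0, median 0.26) ran from -0.17 to 0.43. Bcl2, the anti-apoptotic protein of the mitochondrial membrane, had 61.8, 49.0 and 118 CPM in the KO lines of clones 5, 13 and 16, against 29.4 to 84.0 CPM (median 54.2) in the other KO lines. Control lines had 78.2, 70.5 and 57.3 CPM, against 26.1 to 85.9 CPM (median 57.2). The groups overlapped in both genotypes, 5 of the 6 gained lines were above the reference median, and the log2 difference was 0.39 ± 0.14 (SE). Casp8, the initiator caspase of death receptors, had 52.6, 91.8 and 72.9 CPM in KO lines of clones 5, 13 and 16, against 16.7 to 65.1 CPM (median 40.9) in other KO lines. Its control lines had 48.4, 51.9 and 70.5 CPM, against 18.1 to 69.6 CPM (median 48.2). All 6 gained lines were above the reference median and the difference was 0.43 ± 0.16. Cflar, the neighbouring gene whose product blocks caspase-8, had the lowest difference of the better-covered chromosome 1 loci, -0.17 ± 0.18. It had 32.0, 24.5 and 45.2 CPM in gained KO lines, against 25.0 to 73.4 CPM (median 36.8) in other KO lines. Casp8 and Cflar are at chr1:58795374-58847503 and chr1:58711508-58758884, so the estimates of these neighbours lay further apart than the chromosome's median shift. They were the highest and the lowest of their list, and the difference between them was not tested. Mdm4, an inhibitor of p53, was at -0.02 ± 0.14 and Cdc73, of the PAF1 transcription complex, at -0.04 ± 0.16. Mitotic genes lay near the chromosome's median: Nek2, a centrosomal kinase, at 0.27 ± 0.14, Cenpf, of the kinetochore, at 0.23 ± 0.14, Aspm, of the spindle pole, at 0.35 ± 0.17, and Kif14, a mitotic kinesin, at 0.24 ± 0.15.

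Chromatin and genome maintenance genes were all above 0 (11 measured of 12, median 0.23, range 0.05 to 0.39). H3f3a, which encodes histone H3.3, had 151, 147 and 183 CPM in the KO lines of clones 5, 13 and 16, against 88.2 to 189 CPM (median 112) in other KO lines. The control lines had 141, 122 and 145 CPM, against 89.2 to 161 CPM (median 111). All 6 gained lines were above the reference median but within its range, with a difference of 0.39 ± 0.11. Idh1, the cytosolic isocitrate dehydrogenase, whose product 2-oxoglutarate is a cofactor of the TET enzymes, had 158, 263 and 236 CPM in gained KO lines, against 133 to 253 CPM (median 179) in other KO lines. Its control lines had 189.9, 230.0 and 203 CPM in the gained clones, against 103 to 230.3 CPM (median 170.0) in the others. The difference was 0.23 ± 0.10. Parp1, a sensor of DNA breaks, was at 0.26 ± 0.15, Ino80d, a remodeller subunit, at 0.29 ± 0.12, and Sf3b1, a splicing factor mutated in myelodysplasia, at 0.20 ± 0.12.

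Transcription factors and signalling genes were above 0 in 13 of 14 measured (of 17), with a median of 0.18. Klf7, a Krüppel-like factor, had 89.3, 116 and 161 CPM in the KO lines of clones 5, 13 and 16, against 69.2 to 159 CPM (median 96.1) in other KO lines. Among control lines it had 130.3, 163 and 83.7 CPM, against 47.0 to 127 CPM (median 84.2). The difference was 0.40 ± 0.12, with 4 of the 6 lines above the reference median. Btg2, an antiproliferative gene, was at 0.29 ± 0.13 and Rgs2, a regulator of G-protein signalling, at 0.28 ± 0.12.

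Surface and adhesion genes were above 0 in 9 of 10 measured (of 11), with a median of 0.19. Without clone 5 the median was 0.04, with 5 above 0 and 5 below. Without clone 13 it was 0.23 and without clone 16 it was 0.24. Cd34, a progenitor sialomucin at chr1:194938819-194961279 near the distal end, had 61.8, 110.2 and 103 CPM in the KO lines of clones 5, 13 and 16, against 29.7 to 128 CPM (median 69.8) in other KO lines. In control lines it had 67.0, 108 and 72.7 CPM, against 15.2 to 109 CPM (median 72.3). Both lines of clone 13 were high and both of clone 5 were below the reference median, and the difference was 0.20 ± 0.15. Cd48, a SLAM-family receptor, was at 0.38 ± 0.19, while Ptprc, which encodes CD45 and marks all white blood cells, was at 0.01 ± 0.28.

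Chemokine, cytokine and Fc receptor genes were above 0 in 11 of 11 measured (of 13), with a median of 0.22. Cxcr4, which holds progenitors in the marrow, had 68.7, 49.0 and 80.4 CPM in the KO lines of clones 5, 13 and 16, against 44.1 to 92.6 CPM (median 66.2) in other KO lines. In control lines it had 93.1, 96.5 and 79.3 CPM, against 18.7 to 95.1 CPM (median 68.1). Clone 13 thus had the lowest gained KO line and the highest control line, and the difference was 0.22 ± 0.14. In the Fc receptor cluster Fcgr2b, the inhibitory receptor, was at 0.38 ± 0.19 and Fcgr3, an activating one, at 0.03 ± 0.18. Fcer1g, the shared signalling chain, was also at 0.03, ± 0.15. Phagocyte effector genes were above 0 in 5 of 6 measured (of 8), with a median of 0.15. Slc11a1, a metal transporter of phagosomes, was at 0.24 ± 0.15. Genes with fewer counts, such as Selp, Cd55 and Chil1, had SEs of 0.35 to 0.53 and changed sign in at least 1 alternative fit chosen after the data were seen. Some genes with smaller SEs did so too, among them Fcgr3 (-0.26 to 0.27 over the alternatives) and Fcer1g (-0.19 to 0.15).

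**Figure D4:**
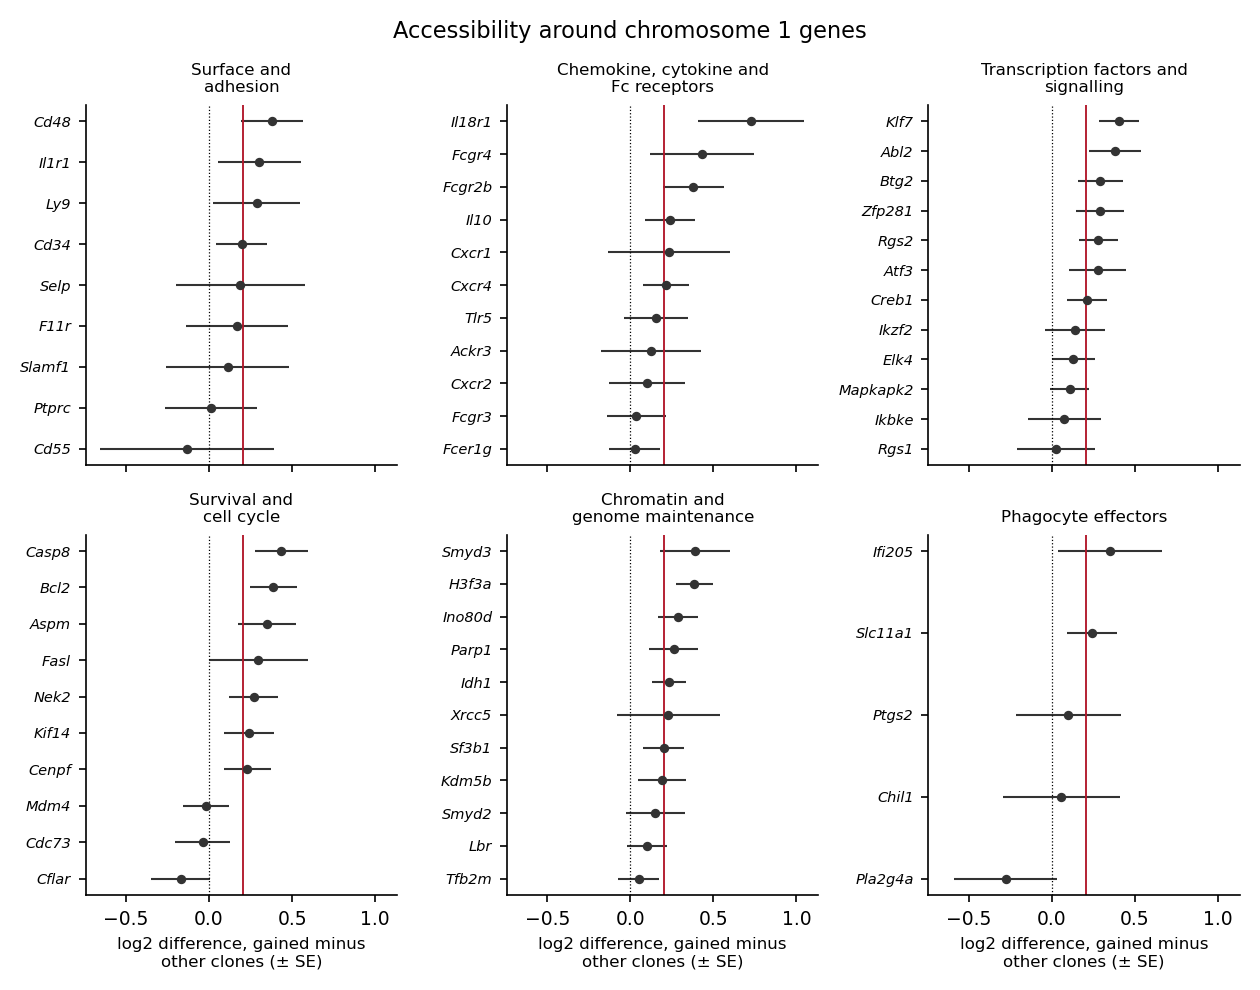
Log2 difference in locus accessibility, gained minus other SCF clones (x axis; points with SE bars), for 58 measured genes of the chromosome 1 lists by role; the dotted line is 0 and the red line the median of all chromosome 1 loci, 0.21. Most points lie around the red line, and the 5 at or below 0 are Cd55, Mdm4, Cdc73, Cflar and Pla2g4a.

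The highest of the better-covered chromosome 1 loci, those at or above the median CPM, included Terf1, Sh3bp4, Capn10 and Lamb3. They were picked by their difference in these data, and how many of all loci separate the lines was not counted. Terf1, at chr1:15805646-15844052, encodes the telomere-binding protein TRF1. It had 48.1, 55.1 and 82.9 CPM in the KO lines of clones 5, 13 and 16, against 15.3 to 74.8 CPM (median 44.0) in other KO lines. In control lines it had 59.6, 96.5 and 59.5 CPM, against 10.6 to 50.5 CPM (median 36.2). The difference was 0.74 ± 0.16. For Capn10, a calpain, it was 0.55 ± 0.12, beside 0.67 ± 0.15 for Sh3bp4 and 0.51 ± 0.16 for Lamb3, a laminin chain. The 5 lowest were Cflar, Slc45a3 at -0.17 ± 0.17, Scly, selenocysteine lyase, at -0.15 ± 0.16, Ddx59, a helicase, at -0.12 ± 0.16, and Acbd3, of the Golgi, at -0.10 ± 0.15.

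Whether any locus departed from the shift of the chromosome was tested by scaling chromosome 1 loci to the chromosome's own total, which takes the chosen signal out. No locus passed in edgeR's quasi-likelihood test at a Benjamini-Hochberg adjusted p of 0.05 (0 of 832 in either direction, 0% called). At an unadjusted p under 0.05 there were 24 loci (2.88%) with edgeR and 20 with DESeq2, which also called 0. Terf1 had the smallest p, with 0.53 ± 0.15 relative to the chromosome (p = 0.000785, adjusted p = 0.653, edgeR's quasi-likelihood test). This test was chosen after the data were seen.

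The other autosomes showed no change of this kind. As shares of the counts on chromosomes 2 to 19, summed over both lines of a clone, chromosomes differed by -0.02 to 0.02 on the log2 scale, gained minus other clones. No chromosome passed a two-sided exact permutation test over the 2024 ways to choose 3 of 24 clones (0 of 18, 0% called). The lowest p was 0.0810, for chromosome 10, with an adjusted p of 0.860 over 18 chromosomes. It had 5.67% of the counts in the gained clones, against 5.74% in the other clones. Single lines of gained clones lay between 0.950 and 1.05 times the reference median, against 0.912 to 1.08 in the other lines. The extremes were both in the KO line of clone 5, on chromosome 10 and on chromosome 6, where its control line had 0.998 and 0.987. Chromosome by chromosome, single gained lines left the range of the other lines in 4 places. On chromosome 10 the KO line of clone 5 was below their lowest, 0.966. On chromosome 14 the control line of clone 13 had 0.964, against a lowest of 0.973, and on chromosome 6 it had 0.962, against a lowest of 0.964. On chromosome 8 the KO lines of clones 13 and 16 had 1.022 and 1.025, against a highest of 1.018. No clone, gained or other, had both lines above 1.08 or both below its inverse on any of chromosomes 2 to 19, and none had both lines past 1.04 or its inverse.

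**Figure D5:**
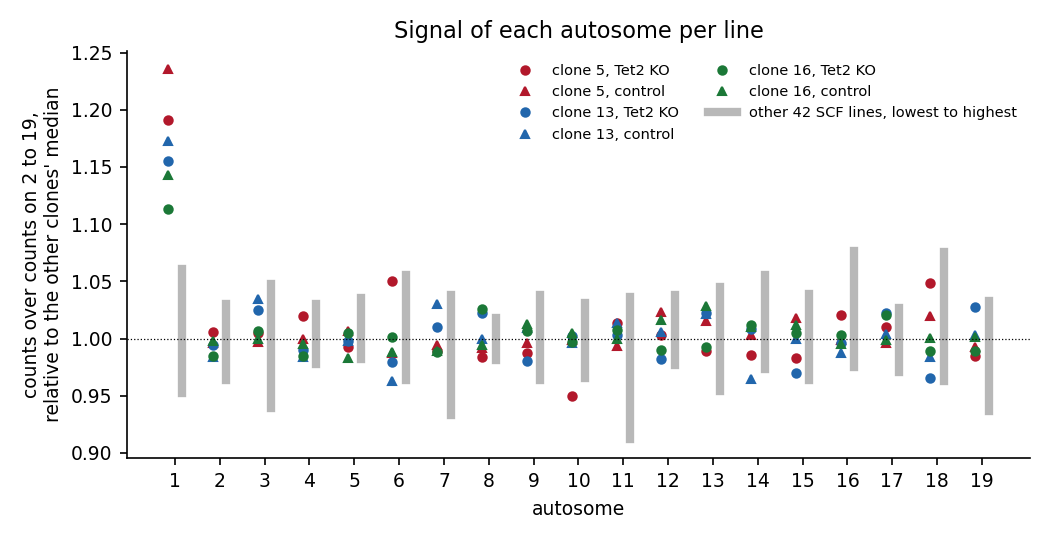
Counts of each autosome over counts on chromosomes 2 to 19, relative to the median of the other clones' lines of the same genotype (y axis), for both lines of clones 5, 13 and 16 (symbols) and the range of the other 42 SCF lines (grey bars), by autosome (x axis). All 6 gained lines are above the grey range on chromosome 1, and elsewhere they lie within 0.950 to 1.05, with single lines outside the grey range on chromosomes 6, 8, 10 and 14.

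Within those chromosomes, 400 bins of 5 Mb were counted. Both lines were above 1.15 in 2, 1 and 0 bins of clones 5, 13 and 16, and both below its inverse in 0, 2 and 0 bins. The other clones had 0 to 3 bins above and 0 to 10 below. In clone 5 the 2 higher bins were on chromosome 2 from 60 Mb and on chromosome 12 from 95 Mb. In clone 13 the higher bin was on chromosome 7 from 85 Mb and the lower ones were on chromosome 6 from 135 Mb and on chromosome 17 from 10 Mb. No bin off chromosome 1 was shared by any pair of gained clones.

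Accessibility of single genes off chromosome 1 did not separate the groups. In edgeR's quasi-likelihood test of counts summed per clone, no locus of 13267 on chromosomes 2 to 19 was higher (0% called) or lower (0% called) at an adjusted p of 0.05. At an unadjusted p under 0.05 there were 435 loci (3.28%), and DESeq2 called 0 with 289 at an unadjusted p under 0.05. Of 17982 single peaks none passed an adjusted p of 0.01 (0% called), with 725 (4.03%) at an unadjusted p under 0.05, and DESeq2 called 0 with 487. With a median SE of 0.17 for a locus, the 95% interval of a typical locus reached 0.33 on the log2 scale to either side, so changes of the size seen on chromosome 1 were not detectable locus by locus. The smallest locus p belonged to Mybbp1a, a nucleolar MYB-binding protein on chromosome 11, at -0.65 ± 0.16 (adjusted p = 0.777, edgeR's quasi-likelihood test).

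Gene groups linked to tolerance of an added chromosome had no called member. The cell cycle and replication list (24 measured on 2 to 19 of 25) had a median of 0.00, with 13 above 0. Mcm5, of the replicative helicase, was at -0.36 ± 0.15 and Ccnb1, cyclin B1, at -0.33 ± 0.18. Spindle checkpoint and kinetochore genes (20 of 21) had a median of -0.08, with 14 below 0. Within that list Mad1l1, of the checkpoint, was at -0.38 ± 0.17 and Cenpe, the kinetochore kinesin, at -0.36 ± 0.26. Cohesin and condensin genes (13 of 16) had a median of 0.08, with 10 above 0. The p53 targets (16 of 18) were at -0.04, heat shock and protein quality control genes (18 of 21) at -0.02, and nucleic acid sensing and interferon genes (16 of 20) at -0.03. Cct2, of the cytosolic chaperonin, was at -0.40 ± 0.15, and Cgas, the DNA sensor that makes cyclic GMP-AMP, at -0.37 ± 0.17. The median of all loci tested was -0.00. The spindle and kinetochore median was -0.17 without clone 16 and -0.12 in KO lines alone, and the heat shock median was -0.11 in KO lines alone.

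Lists of the myeloid and neighbouring lineages also had 0 called members. Monocyte and macrophage genes (17 of 18) had a median of 0.12, with 15 above 0, and neutrophil genes (21 of 24) had a median of 0.13, with 15 above 0. Adgre1, which encodes the macrophage antigen F4/80, was at 0.56 ± 0.27 (-0.04 to 0.86 over the alternatives), C1qb, a complement component, at 0.36 ± 0.23 (0.01 without clone 16), S100a8, a calgranulin, at 0.54 ± 0.31 (0.07 with a 50 kb window), and Ms4a3, a marker of granulocyte-monocyte progenitors, at 0.48 ± 0.23. The smallest adjusted p that any locus in the fit reached was 0.777. The granule genes Elane and Prtn3 were at -0.04 ± 0.11 and -0.06 ± 0.11, and Cebpe, a factor of granulocyte maturation, at -0.01 ± 0.12. The monocyte and macrophage median was 0.07 without clone 5, 0.20 without clone 13 and 0.07 without clone 16. The neutrophil median was 0.07, 0.05 and 0.17 in the same order. Stem and early progenitor genes (22 of 24) had a median of -0.03, dendritic cell genes (11 of 14) -0.08, erythroid and megakaryocyte genes (11 of 16) -0.00, lymphoid genes (14 of 16) -0.01, and basophil, eosinophil and mast cell genes (8 of 12) -0.04. HoxA and HoxB genes (17 of 18) were at -0.10, with Hoxa9 at -0.43 ± 0.33, DNA methylation enzymes (13 of 15) at 0.00, with Tet2 at 0.36 ± 0.18, and housekeeping genes (12 of 14) at -0.07. The HoxA and HoxB median was -0.29 without clone 5 and 0.00 without clone 13, and the basophil, eosinophil and mast cell median was -0.22 without clone 5. At an unadjusted p under 0.05 the lists off chromosome 1 had 0 to 3 members each, with 3 of 20 for spindle and kinetochore genes, 2 of 21 for neutrophil genes and 2 of 11 for erythroid and megakaryocyte genes, beside 3.28% of all loci.

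The effect of Tet2 loss was then compared between the groups, on chromosomes 2 to 19, with the clone as a block. KO minus control differed between gained and other clones at 0 of 11963 loci in either direction (0% called, edgeR's quasi-likelihood test, adjusted p of 0.05), with 460 (3.85%) at an unadjusted p under 0.05. Without the replicate block it was also 0, with 431 at an unadjusted p under 0.05, and DESeq2 called 0 with 254. Without clone 16 there was 1 locus, Angptl8, a secreted regulator of lipoprotein lipase. It had 16, 10 and 10 counts in the KO lines of clones 5, 13 and 16, against 0, 1 and 10 in their control lines. In CPM the KO lines had 36.6, 61.2 and 25.1, against 11.0 to 45.8 in other KO lines. The control lines had 0, 3.71 and 22.0 CPM, against 9.49 to 36.6 CPM in other control lines. Clones 5 and 13 thus set the value, with control lines below all others, and clone 16 did not share it. Its difference of KO effects over all clones was 1.79 ± 0.54 (p = 0.00105, adjusted p = 1.00, edgeR's quasi-likelihood test).

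The 6 gained libraries had different total counts, so none was another one deposited unchanged. Whether same-genotype pairs of gained lines differed by more than counting noise was checked as a description. A chi-square test over peaks on chromosomes 2 to 19 with at least 10 counts in a pair of lines found more than counting noise between the libraries in each of the 6 same-genotype pairs. It compares single libraries, covers counting error only and treats reads as independent, and it had a p over 0.05 in only 3 of the 276 KO pairs and 4 of the 276 control pairs of SCF clones. Chi-square per degree of freedom was 1.03 between the KO lines of clones 13 and 16 (p = 0.0150, 11964 peaks), the closest pair, and 1.10 between their control lines (p = 4.28e-17). The median over all 276 KO pairs of SCF clones was 1.11 and over all 276 control pairs 1.14. Across 6634 loci, deviations from the genotype mean correlated at r = 0.04 between the KO lines of clones 13 and 16, -0.12 between those of clones 5 and 13 and -0.09 between those of clones 5 and 16. In all 276 KO pairs r ran from -0.19 to 0.15. The 2 lines of the same clone had r of 0.035, 0.089 and 0.034 in clones 5, 13 and 16, so r does not tell pairs within a clone from pairs between clones. The gained clones were counted as 3 clones because they are labelled so, and neither check can show that they arose separately.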

How the data were processed

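Bulk ATAC-seq libraries of 56 lines were made with a different Tn5 barcode in each well. Per the submitters' processing notes, mm10 was the build, and the tools named were Bowtie2, SAMtools and Picard, with no versions named. The deposited values are raw counts per peak, with no normalization, over 297361 peaks of 301 bp that the authors fixed from single-cell summits and public peaks. Handling of duplicates, and the choice of fragments or insertions as the counted unit, are not stated. More counts in a line mean less counting error. The members and gene lists were chosen with earlier results of these data known.

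Promoters and loci used GENCODE vM21 (mm10), which has 21755 protein-coding genes, of which 18715 had a peak within 10 kb. Counts on chromosomes 2 to 19 alone set library sizes and scaling. Both lines of a clone were summed, since they come from 1 cell, and loci and peaks were tested with edgeR 4.0.16 (quasi-likelihood, TMM, filterByExpr with a minimum count of 10) in R 4.3.3. DESeq2 1.42.0 was the alternative tool. Shares were compared by exact permutation over clones. The scripts were tested on simulated data. Python 3.11 scripts did the rest. The KO effect used the clone as a block because both lines descend from 1 cell. Deviations of the 2 lines of a clone correlated at -0.01 to 0.18 (median 0.06) over the 24 SCF clones, and the KO line was closest to its own control line in 6. Named genes were the measured members of the chromosome 1 lists, the 5 highest and 5 lowest chromosome 1 loci at or above the median CPM, the 2 largest differences in each list and any called feature. A few more were named after their values were seen: Kit, Mpo, Elane, Prtn3, Cebpe, Mybbp1a and Angptl8. Some genes that this rule names are not reported here, though the list counts include them. Alternatives were DESeq2, upper-quartile scaling, no filter, clones 1 to 18 only, promoter share as a covariate, clones 13 and 16 as 1 replicate, either genotype alone, other locus windows, and leaving out each gained clone. The GM-CSF libraries were used only for the median in the rule.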

Additional observations from a re-analysis of the deposited data

How the results depend on the processing

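No alternative called a locus, peak or chromosome share on chromosomes 2 to 19, nor a chromosome 1 locus relative to its chromosome. The lowest adjusted p of any alternative was 0.125 for loci (without clone 5), 0.166 for peaks (without clone 5), 0.213 for chromosome shares and 0.255 for chromosome 1 loci. The median SE was 0.17 for a locus and 0.26 for a peak, and the parts of counting depth and of the spread between clones in it were not tested. The difference of the Tet2 KO effect was called at 0 to 1 loci when a gained clone was left out (1 without clone 16) and at 0 with no replicate block. The chromosome 1 ratio moved by more than the spread of the other lines in some lines. With distal peaks only it was 1.16 in the KO line of clone 5, and with promoter peaks only 1.21 in its control line. With the less accessible peaks, those at or under the median, it was 1.14 in the KO line of clone 5, 1.27 in its control line, 1.13 and 1.21 in the KO and control lines of clone 13 and 1.18 in the control line of clone 16. Every such value stayed above 1. Named chromosome 1 genes were refitted under alternatives chosen after seeing the data, and 23 of them changed sign in at least 1.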

Other observations

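The X chromosome was outside every comparison. Its counts relative to the median library were 1.00 to 1.04 in the gained lines, against 0.961 to 1.09 in the other lines of clones 1 to 18 and 0.739 to 0.915 in the lines of clones 23 to 29. With the other clones of 1 to 18 alone as the reference, the chromosome 1 ratio was 1.11 to 1.19 in gained KO lines and 1.14 to 1.23 in gained control lines.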
